A study of Homo sapiens with 4 samples.

Results

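The polo-like kinases are a small family of serine/threonine kinases, and the 4 genes described here are PLK1, PLK2, PLK3 and PLK4, of 34608 genes counted in the series. They were taken by gene symbol, and the family was chosen by the log2 fold changes of dex over etoh in these same libraries, in which PLK2 was far lower. Their differences between treatments are therefore a description and carry no test. RNA was sequenced from A549, a cell line derived from a human lung adenocarcinoma. The 2 dex libraries came from cells given 100 nM dexamethasone, a synthetic glucocorticoid, for 3 h, and the 2 etoh libraries from cells given 0.02% ethanol as vehicle for the same time. The labels do not say whether the dex cells also received ethanol, or whether the libraries of one treatment are separate cultures. Setting dex against etoh asks how transcript levels differ after 3 h of hormone.

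Polo-like kinases typically carry a kinase domain followed by polo-box sequence, with which they dock onto their partners. PLK1 drives mitotic entry, centrosome maturation, spindle assembly and cytokinesis, and PLK4 starts the duplication of centrioles. PLK2 and PLK3 were first described as genes induced quickly by serum and growth factors, and they act in interphase and in responses to stress. PLK2 is also a known target of the tumour suppressor p53. The remaining gene of the family, PLK5, is expressed mainly in the brain.

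In GRCh38, PLK2 lies on the minus strand of chromosome 5 from 58453982 to 58460260, and PLK3 on the plus strand of chromosome 1 from 44800225 to 44805990. PLK1 lies on the plus strand of chromosome 16 from 23677656 to 23690367, and PLK4 on the plus strand of chromosome 4 from 127880861 to 127899195. All 4 are protein-coding genes. The 250 bases before a transcription start are shown for PLK2 and PLK3, the members called lower in dex, and for PLK1, whose levels overlapped between treatments. The sequences are those of RefSeq on GRCh38.p14, read in the direction of the gene, at chr5:58460087-58460336 on the minus strand for PLK2, chr1:44800127-44800376 on the plus strand for PLK3 and chr16:23678639-23678888 on the plus strand for PLK1. RefSeq's starts differ from the ends of the gene spans given above, so the PLK1 window lies wholly inside its span and parts of the PLK2 and PLK3 windows lie inside theirs. Capitals mark matches to any of 6 motifs.
PLK2: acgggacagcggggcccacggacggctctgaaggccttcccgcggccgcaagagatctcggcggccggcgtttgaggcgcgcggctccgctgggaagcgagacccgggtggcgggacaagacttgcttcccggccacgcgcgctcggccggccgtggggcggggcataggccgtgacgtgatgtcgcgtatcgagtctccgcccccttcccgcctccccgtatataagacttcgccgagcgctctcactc
PLK3: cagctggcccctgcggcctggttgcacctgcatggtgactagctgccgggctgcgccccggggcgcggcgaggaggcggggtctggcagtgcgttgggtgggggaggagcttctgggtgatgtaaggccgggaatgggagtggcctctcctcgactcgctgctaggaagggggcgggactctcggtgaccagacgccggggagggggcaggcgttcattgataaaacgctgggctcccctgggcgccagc
PLK1: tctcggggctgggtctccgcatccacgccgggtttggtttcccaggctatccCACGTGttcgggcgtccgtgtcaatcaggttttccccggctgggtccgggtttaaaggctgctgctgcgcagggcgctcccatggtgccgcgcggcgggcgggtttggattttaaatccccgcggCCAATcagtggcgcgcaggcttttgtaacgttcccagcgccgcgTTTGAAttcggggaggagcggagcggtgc
The motifs, searched on both strands, were the cell cycle element CHR (TTTGAA), the cyclic AMP response element (TGACGTCA), AP-1 (TGANTCA), the CCAAT box (CCAAT), the E-box (CACGTG) and the palindromic glucocorticoid response element. The windows of PLK2 and PLK3 held none of them. The PLK1 window held a CHR 29 bases before the start, a CCAAT box 73 bases before it and an E-box 198 bases before it. CHR is best known from genes of late cell cycle, and CCAAT boxes are bound by NF-Y. Among all 35116 promoter windows of the same length, 13.3% held a CHR, 32.0% a CCAAT box, 6.35% an E-box, 6.57% an AP-1 match, 1.65% a cyclic AMP response element and 0.328% a glucocorticoid response element. A match is a description of the letters only, and what binds there was not measured. PLK4 has 3 listed starts, and the single match in their windows was a CCAAT box 86 bases before the third.

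The libraries held 9764159 to 11887526 reads aligned to named transcripts, and levels are given as counts per 1000000 of these reads (CPM). Libraries of one group differed less from each other than from the other group: chi-square over its degrees of freedom, from the gene counts of a pair of libraries, was 5.37 for dex, 6.97 for etoh and at least 15.2 across groups. The hormone response was present, since FKBP5, which encodes a receptor-bound co-chaperone, averaged 231 ± 1.78 CPM in dex and 22.4 ± 0.359 CPM in etoh (SD, n = 2 each). TSC22D3 and PER1, other known targets of the receptor, were 21.7 and 14.5 times as high in dex as in etoh. The receptor gene NR3C1 averaged 369 ± 22.7 CPM in dex and 574 ± 31.2 CPM in etoh. The 6 epithelial markers were all detected, and their summed level was 7359 to 8522 CPM in dex and 4244 to 4917 CPM in etoh. KRT8, KRT18 and KRT7 carried this difference, while CDH1 had 37.3 and 35.6 CPM in dex and 32.6 and 34.0 in etoh and KRT19 15.3 and 14.5 against 14.6 and 14.0. EPCAM overlapped between groups, at 8.34 and 8.53 CPM in dex and up to 11.3 CPM in etoh. Of 4 blood cell markers CD3E was at 0, of 4 fibroblast markers COL1A2, of 3 listed endothelial markers VWF and of 6 alveolar type II markers SFTPA1. Summed fibroblast markers were 16.9 to 21.6 CPM in dex and 10.5 to 15.7 CPM in etoh, alveolar markers 29.7 to 40.8 and 24.2 to 27.7 CPM, blood cell markers 5.66 to 7.12 and 5.30 to 5.33 CPM, and endothelial markers 0.359 to 1.02 and 0.252 to 0.307 CPM. The fibroblast sum was nearly all COL1A1, at 16.7 and 21.3 CPM in dex and 10.4 and 15.4 CPM in etoh, and the alveolar sum nearly all ABCA3, at 40.7 and 29.2 CPM in dex and 23.7 and 27.3 CPM in etoh. The defining markers DCN, PDGFRB, SFTPC, SFTPB, NKX2-1 and LAMP3 had at most 0.41 CPM in any library. The part of these differences in the values below was not tested.

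PLK2 was the member whose level differed most between treatments. It had 1196 and 1494 reads in dex, or 122 and 134 CPM, and 4545 and 5703 reads in etoh, or 465 and 480 CPM. The groups were far apart and the libraries of each lay close together. PLK2 averaged 128 ± 8.79 CPM in dex and 473 ± 10.1 CPM in etoh (SD, n = 2 each), so its level was 72.9% lower in dex. Its log2 fold change in edgeR's fit over all genes was -1.87 (SE 0.10). Of 14777 tested genes, 34 had a lower log2 fold change than PLK2. PLK2 is also an abundant transcript here, since 3.55% of tested genes had a higher mean level. In bulk RNA, less transcript per cell and fewer cells that carry it cannot be told apart.

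PLK3, the other member known as an early response gene, was scarce and was also lower in dex. It had 48 and 68 reads in dex, or 4.88 and 6.10 CPM, and 91 and 122 reads in etoh, or 9.32 and 10.3 CPM. The groups did not overlap, although each dex value rests on fewer than 100 reads. PLK3 averaged 5.49 ± 0.863 CPM in dex and 9.79 ± 0.667 CPM in etoh (SD, n = 2 each), and its log2 fold change was -0.81 (SE 0.21). DESeq2 gave nearly the same value, -0.82, with a larger SE of 0.31 and no call, and without dex replicate 1 the log2 fold change was -0.67 with no call in edgeR. The end of PLK3 overlaps TCTEX1D4 on the opposite strand over 78 exon bases, and whether the counts used strand is not stated. TCTEX1D4 itself had 0 and 2 reads in dex and 5 and 7 in etoh.

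**Figure D1:**
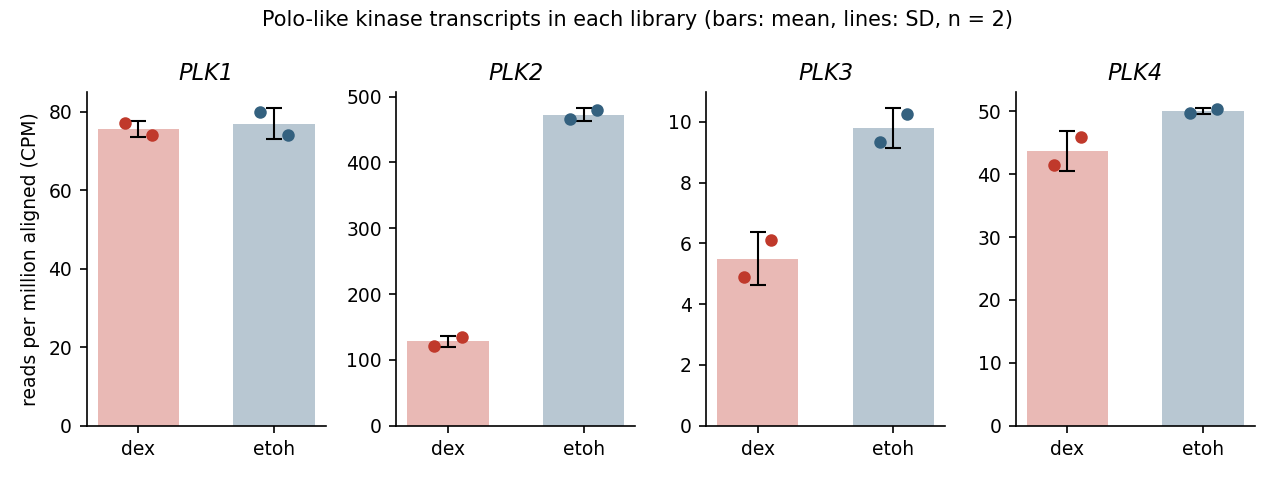
Each panel plots 1 gene in counts per 1000000 aligned reads (CPM, from 0, each panel on its own scale) for dex on the left and etoh on the right; points are libraries, bars the mean and lines the SD of 2 libraries. PLK2 lies at 122 and 134 CPM in dex and at 465 and 480 CPM in etoh, PLK3 is lower in dex too, and the points of PLK1 overlap between groups.

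PLK1, the mitotic member, had nearly the same level under both treatments. It had 757 and 825 reads in dex, or 77.0 and 74.1 CPM, and 779 and 881 reads in etoh, or 79.8 and 74.1 CPM. The ranges overlapped, and both groups had a library near 74 CPM. The means were 75.5 ± 2.09 CPM in dex and 76.9 ± 4.01 CPM in etoh (SD, n = 2 each), with a log2 fold change of -0.01 (SE 0.11). Exons of PLK1 overlap an antisense gene over 553 bases and ERN2 over 42 bases on the opposite strand, but those genes had at most 3 reads in any library.

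PLK4, the centriole kinase, was slightly lower in dex. It had 407 and 511 reads in dex, or 41.4 and 45.9 CPM, and 485 and 599 reads in etoh, or 49.7 and 50.4 CPM. The groups did not overlap, but the gap between the nearest libraries was smaller than the distance between the dex libraries. PLK4 averaged 43.6 ± 3.16 CPM in dex and 50.03 ± 0.507 CPM in etoh (SD, n = 2 each), with a log2 fold change of -0.18 (SE 0.11) and no call. PLK5 had no read in any library, which allows up to 0.307 CPM from a floor of 3 counts in the shallowest library.

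All 4 members passed the count filter. At a threshold of 0.05 on edgeR's adjusted p, 2 of them, PLK2 and PLK3, were called lower and 0 higher. The shares called were 4.42% lower and 6.98% higher among all tested genes, and the members were chosen with this contrast known, so nothing is read from their count. DESeq2 called 1 member lower, PLK2, with a share of 2.8% over all genes it gave an adjusted p. Both dex libraries lay below both etoh libraries for 3 members, against 28.8% of all tested genes, and above them for 0 members, against 24.5%.

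**Figure D2:**
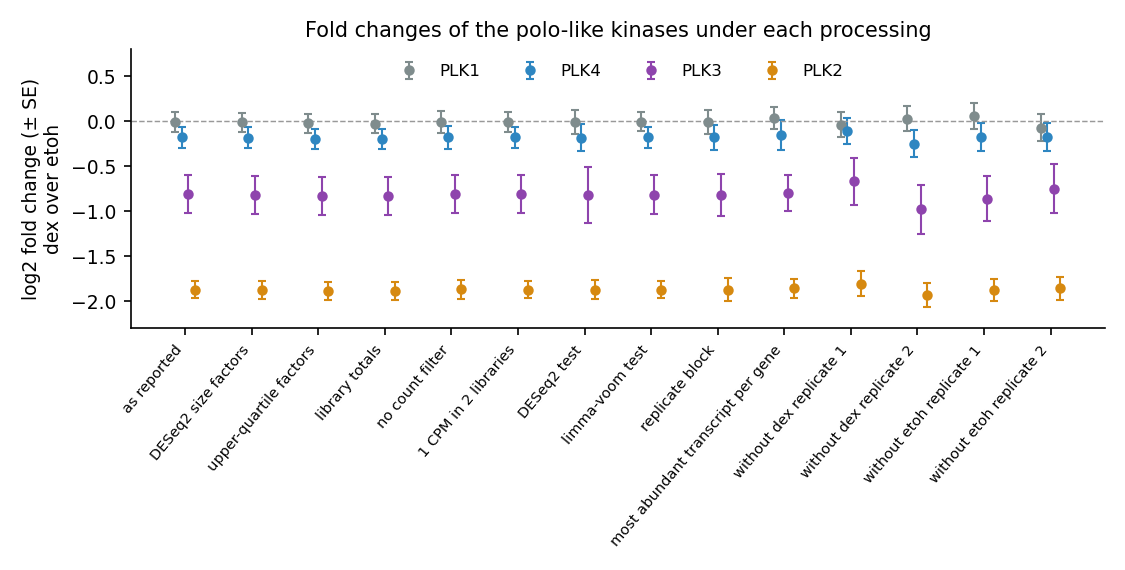
The vertical axis is the log2 fold change of dex over etoh with its SE, and each column along the horizontal axis is a way of processing the counts, with PLK1, PLK4, PLK3 and PLK2 as points. PLK2 stayed between -1.93 and -1.80 and PLK3 between -0.98 and -0.67, while PLK1 lay between -0.07 and 0.06 and PLK4 between -0.25 and -0.11.

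Ratios between members within a library do not depend on how libraries are scaled. There were 1.58 and 1.81 PLK2 reads per PLK1 read in dex, against 5.83 and 6.47 in etoh. PLK2 reads per PLK4 read were 2.94 and 2.92 in dex and 9.37 and 9.52 in etoh. PLK2 reads per PLK3 read were 24.9 and 22.0 in dex and 49.9 and 46.7 in etoh. In each of these ratios the dex libraries lay below both etoh libraries, so PLK2 was lower in dex relative to every other member, PLK3 included. PLK3 reads per PLK1 read were 0.0634 and 0.0824 in dex and 0.117 and 0.138 in etoh, again without overlap. PLK4 reads per PLK1 read were 0.538 and 0.619 in dex and 0.623 and 0.680 in etoh, and these groups nearly touched.

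Levels of different genes were compared as reads per kilobase of transcript and 1000000 aligned reads (RPKM), with the reads of each transcript divided by its own length and then summed over the gene. In etoh the order was PLK2 at 157 and 162 RPKM, PLK1 at 70.7 and 63.3, PLK4 at 15.4 and 15.9 and PLK3 at 3.74 and 4.12. In dex PLK1 came first at 65.0 and 64.7 RPKM, then PLK2 at 41.1 and 45.3, PLK4 at 12.8 and 14.0 and PLK3 at 1.96 and 2.45. No neighbours overlapped in either group, so each step of the order was larger than the spread between the 2 libraries. The place of PLK1 above PLK2 in dex depended on how length was handled, and so did that of PLK4 above PLK3 in etoh. With the most abundant transcript of each gene by its length, PLK3 had 3.74 and 4.12 RPKM in etoh and PLK4 3.55 and 3.07. In dex PLK1 had 20.8 and 19.2 RPKM by that measure, below PLK2 at 41.1 and 45.3. With the summed reads of a gene divided by its longest transcript, PLK1 had 34.6 and 33.3 RPKM in dex and PLK2 kept 41.1 and 45.3. PLK2 was then 1.28 ± 0.123 times PLK1 in dex, against 0.666 ± 0.0476 times with each transcript at its own length (SD, n = 2 each). In etoh PLK2 exceeded PLK1 either way, by 2.39 ± 0.237 times at each transcript's own length and 4.63 ± 0.340 times by the longest transcript.

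As a share of the family's RPKM, PLK2 made up 34.9% ± 1.28 in dex and 64.8% ± 1.68 in etoh (SD, n = 2 each). PLK1 made up 52.5% ± 1.83 in dex and 27.2% ± 1.99 in etoh, and PLK4 10.8% ± 0.322 and 6.35% ± 0.196. The shares sum to 100%, and the RPKM of PLK1 and PLK4 averaged 64.9 and 13.4 in dex against 67.0 and 15.6 in etoh. PLK3 made up 1.78% ± 0.223 in dex and 1.60% ± 0.116 in etoh. With the longest transcript as the length, PLK2 made up 47.6% ± 1.60 in dex and 75.6% ± 0.895 in etoh.

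**Figure D3:**
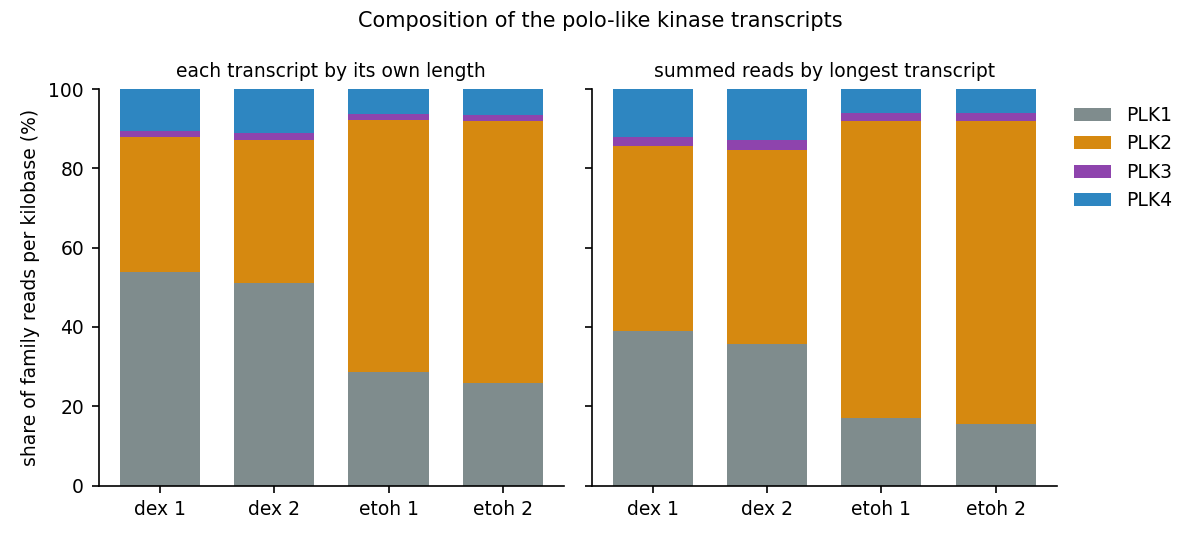
Stacked bars give the share of each member in the family's reads per kilobase (%) in the dex libraries on the left of each panel and the etoh libraries on the right, with each transcript at its own length in the left panel and summed reads over the longest transcript in the right panel. The PLK2 segment averages 34.9% in dex and 64.8% in etoh in the left panel, and 47.6% and 75.6% in the right panel.

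PLK2 and PLK3 are counted over a single transcript each, of 2960 and 2492 bases, so their values involve no split between transcripts. PLK1 is counted over 4 transcripts. PLK1-001, of 2227 bases, held 57.8% to 60.2% of the gene's reads in dex and 55.8% to 59.8% in etoh. The short PLK1-007 held 16.4% to 17.1% in dex and 16.6% to 17.9% in etoh, PLK1-008 13.9% to 15.9% and 14.4% to 16.05%, and PLK1-004 9.21% to 9.51% and 7.83% to 11.6%. The ranges of each PLK1 transcript overlapped between groups. Between 77.8% and 87.9% of the stretches of 36 bases in the short transcripts also occur in PLK1-001, so their reads were in large part placed by the aligner. PLK4 is counted over 6 transcripts, and PLK4-001, of 3841 bases, held 25.3% to 25.6% of the reads in dex and 23.4% to 27.4% in etoh. The other 4 long transcripts of PLK4 held between 15.7% and 20.5% each, and share at least 95.5% of their stretches with PLK4-001. PLK4-009, of 596 bases, had 2 to 3 reads in dex and 4 to 7 in etoh. No stretch of PLK2 or PLK4 occurs in another counted gene, and 5.08% of those of PLK1 and 1.75% of those of PLK3 do.

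**Figure D4:**
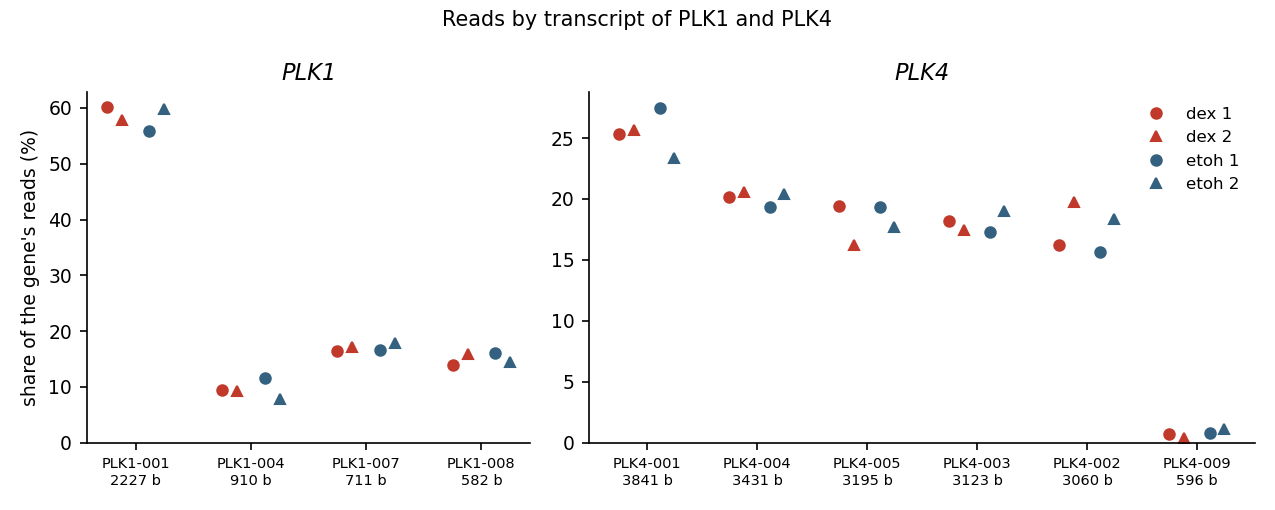
Points give the share of a gene's reads (%, vertical axis) held by each transcript of PLK1 and PLK4 (horizontal axis, with its length in bases), dex libraries left of etoh libraries. PLK1-001 holds 55.8% to 60.2% of PLK1 reads over the 4 libraries, and the 5 long PLK4 transcripts hold between 15.7% and 27.4% of PLK4 reads.

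Of 18 tested mitotic kinases outside the family, none was called by edgeR's quasi-likelihood test, DESeq2 or limma-voom, although 5 were lower and 0 higher in edgeR where its p before adjustment was under 0.05. Of the 18, 17 had a log2 fold change below 0 in edgeR. The log2 fold changes of these kinases ran from -0.29 to 0.02. Their median was -0.13, beside a median of -0.0026 over all tested genes. AURKA, which activates PLK1, averaged 396 ± 44.1 CPM in dex and 456 ± 81.3 CPM in etoh, and CDK1, the kinase of mitotic entry, 275 ± 33.4 and 323 ± 8.17 CPM (SD, n = 2 each). Of 28 activators, docking partners and targets of PLK1, 1 was called higher and 2 lower, which is 10.7% beside 11.4% over all tested genes, with a median log2 fold change of -0.01. BORA, the cofactor through which AURKA activates PLK1, averaged 10.6 ± 0.00844 CPM in dex and 15.7 ± 0.867 CPM in etoh (log2 fold change -0.55 ± 0.17 SE, edgeR adjusted p = 0.0368). ECT2, the exchange factor for RhoA in cytokinesis, averaged 242 ± 32.2 CPM in dex and 342 ± 14.6 CPM in etoh (log2 fold change -0.48 ± 0.10 SE, edgeR adjusted p = 0.00223). NINL, a centrosomal substrate of PLK1, rose by 0.44 on the log2 scale (SE 0.14). BORA was not called by DESeq2 or without any 1 of 3 libraries, at -0.47 without etoh replicate 1, -0.54 without dex replicate 2 and -0.55 without dex replicate 1. ECT2 was not called without dex replicate 1, at -0.36. NINL was not called with DESeq2, limma-voom, upper-quartile factors, library totals or the most abundant transcript, at 0.30, or without dex replicate 2, at 0.32, etoh replicate 1, at 0.39, or etoh replicate 2, at 0.51. In BORA, 37.6% of the stretches of 36 bases also occur in DIS3, which overlaps it on the opposite strand.

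Genes of centriole duplication, the process PLK4 starts, gave 0 higher and 1 lower of 21. That is 4.76% called, beside 11.4% over all tested genes, with a median log2 fold change of -0.08. The called gene was SASS6, the cartwheel protein of new centrioles, which averaged 15.1 ± 3.39 CPM in dex and 23.3 ± 2.84 CPM in etoh (log2 fold change -0.60 ± 0.17 SE, edgeR adjusted p = 0.0201). SASS6 was not called by DESeq2, without dex replicate 1, at -0.39, or without etoh replicate 1, at -0.45. TUBG1, the gamma-tubulin of centrosomes, averaged 96.5 ± 8.46 CPM in dex and 78.0 ± 14.1 CPM in etoh, and CDK5RAP2, a scaffold of the pericentriolar material, 60.2 ± 1.89 and 56.5 ± 3.07 CPM. TUBG1 was called higher without dex replicate 2, at 0.42, and without etoh replicate 2, at 0.51. TUBG1 shares 35.4% of its stretches with other counted genes, mostly TUBG2. SASS6 shares 6.68% of its stretches with AC093019.2, a counted gene that overlaps it on the same strand.

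Genes induced early by serum or by ERK signalling, the setting in which PLK2 and PLK3 were first found, included many called genes. Of 27 tested, 4 were called higher and 13 lower, which is 63% beside 11.4% over all tested genes, and the median log2 fold change was -0.68. EREG, a ligand of the epidermal growth factor receptor, averaged 29.2 ± 0.796 CPM in dex and 204 ± 7.80 CPM in etoh (log2 fold change -2.79 ± 0.11 SE, edgeR adjusted p = 6.0e-14). DUSP4, a MAP kinase phosphatase, averaged 49.95 ± 0.711 CPM in dex and 160 ± 5.08 CPM in etoh (log2 fold change -1.67, SE 0.11). AREG, another ligand, fell by 1.97 on the log2 scale (SE 0.17). A near-identical copy, AREGB, is counted apart with 23 and 33 reads in dex and 124 and 126 in etoh, so the split of reads between the copies is uncertain. KLF6, a Krüppel-like factor, averaged 182 ± 6.42 CPM in dex and 72.1 ± 8.43 CPM in etoh (log2 fold change 1.36, SE 0.11). The other 3 called higher, named after their values were seen, were JUNB at 1.01, MCL1 at 0.84 and FOS at 0.72. DESeq2 called 3 of the list higher and 10 lower. EGR1, EGR2 and EGR3 were below the count filter and were not tested. Part of this list was known to be lower from earlier results of the same libraries. Neither its direction nor its share called is therefore independent support.

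Of 26 genes of the p53 and DNA damage response, of which PLK2 is a known target, 5 were called higher and 1 lower. That is 23.1% in all, beside 11.4% over all tested genes, with a median log2 fold change of 0.06. CDKN1A, an inhibitor of cyclin-dependent kinases, averaged 160 ± 3.73 CPM in dex and 66.3 ± 11.1 CPM in etoh (log2 fold change 1.28, SE 0.11). GADD45A, a stress-response gene, averaged 70.7 ± 18.2 CPM in dex and 23.1 ± 0.196 CPM in etoh (log2 fold change 1.63, SE 0.14). The antiproliferative gene BTG2 had a log2 fold change of 0.82 (SE 0.16) and TP53I3, an oxidoreductase gene, one of 0.65 (SE 0.11), both called higher. TP53INP1 at 0.48 and RRM2B at -0.37, the remaining called genes, were named after their values were seen, and neither was called by DESeq2, which called 4 of the list higher and 0 lower. In edgeR, 10 of the 26 had a log2 fold change below 0, the sign PLK2 had in the same libraries. CDKN1A and GADD45A had the opposite sign. The cause of these signs was not tested. Of 15 tested partners and substrates of PLK2 and PLK3, 1 was called higher and 0 lower. That is 6.67%, beside 11.4% over all tested genes, with a median log2 fold change of 0.03. Before adjustment, with p under 0.05, 3 were higher and 2 lower in edgeR, and DESeq2 called 0 in either direction. The called gene was CIB2, of a calcium-binding family whose member CIB1 binds PLK2 and PLK3, at 14.4 ± 3.56 CPM in dex and 8.88 ± 0.532 CPM in etoh (log2 fold change 0.70 ± 0.19 SE, edgeR adjusted p = 0.0198). CIB2 was not called by DESeq2, with the most abundant transcript, at 0.54, or without dex replicate 1, at 0.43, and 11.5% of its stretches also occur in SH2D7, which overlaps it on the opposite strand. The abundant NPM1, a nucleolar protein of centrosome duplication, averaged 2296 ± 84.4 CPM in dex and 2248 ± 116 CPM in etoh, and HIF1A, the hypoxia factor, 785 ± 4.67 and 867 ± 12.1 CPM. NPM1 shares 12.9% of its stretches with other counted genes.

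**Figure D5:**
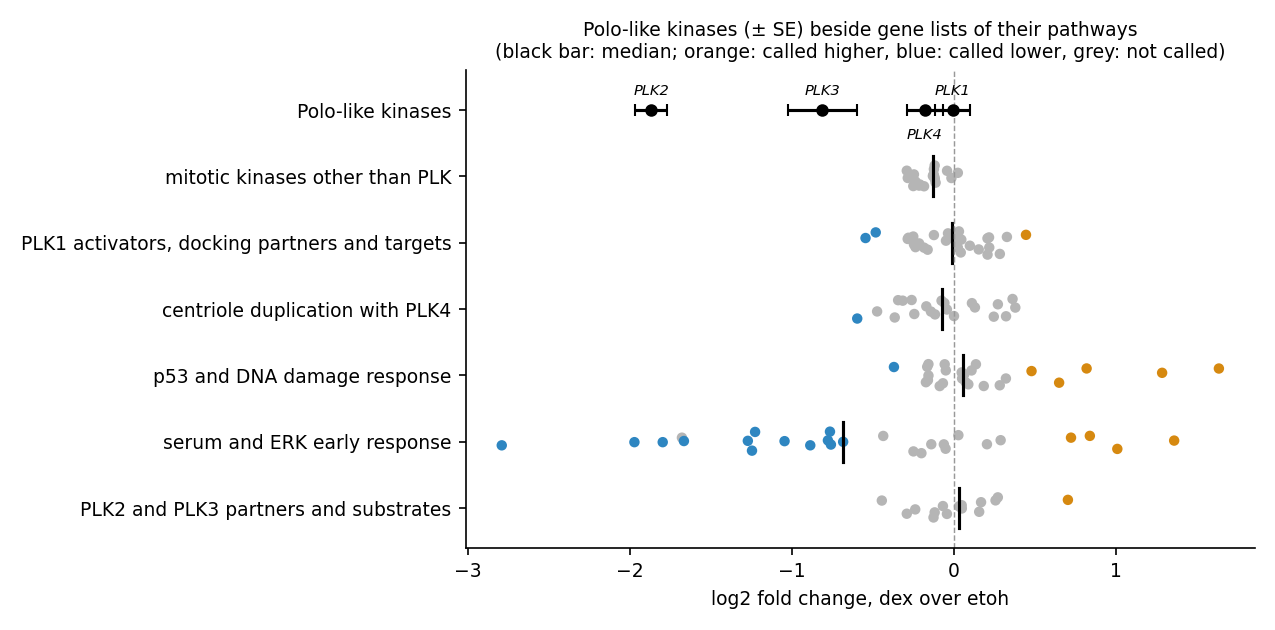
The horizontal axis is the log2 fold change of dex over etoh; the top line gives the 4 polo-like kinases with their SE, and each line below gives 1 gene list with a point per tested gene and a bar at the median. The early response genes have a median of -0.68 and 13 called lower, and the mitotic kinases lie between -0.29 and 0.02.

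The genes whose profile was most like that of PLK2 were sought among 2811 genes within 4-fold of its mean level, by the Euclidean distance between centred log2 CPM values over the 4 libraries. They were DIO2, a deiodinase that activates thyroid hormone, at a distance of 0.143, DUSP4 at 0.231, GPRIN3 at 0.409, C8orf4 at 0.623 and PHLDA1, a feedback regulator of growth factor signalling, at 0.649. DIO2 averaged 36.2 ± 2.60 CPM in dex and 128 ± 8.46 CPM in etoh, and GPRIN3 41.3 ± 2.76 and 115 ± 1.89 CPM (SD, n = 2 each). C8orf4 averaged 63.9 ± 8.79 CPM in dex and 154 ± 4.52 CPM in etoh, and PHLDA1 45.4 ± 2.73 and 108 ± 4.99 CPM. These genes were picked by the same 4 libraries, so their being lower in dex was set by the choice. PHLDA1 shares 16.7% of its stretches with other counted genes, mostly an antisense gene.

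For PLK3, with 7271 candidates and 1 clone-named gene left out, the nearest were IFNE, an interferon, at 0.0560, FAM174A at 0.0688, the histone gene HIST1H2BD at 0.0837, CYP1B1, an enzyme of the cytochrome P450 family, at 0.0950, and DDX58, which encodes the RNA sensor RIG-I, at 0.107. CYP1B1 averaged 15.9 ± 1.57 CPM in dex and 29.2 ± 1.70 CPM in etoh, and DDX58 7.15 ± 1.19 and 11.8 ± 0.969 CPM (SD, n = 2 each). FAM174A averaged 3.70 ± 0.482 CPM in dex and 6.65 ± 0.711 CPM in etoh. HIST1H2BD averaged 2.23 ± 0.275 CPM in dex and 3.87 ± 0.116 CPM in etoh, and IFNE 1.75 ± 0.317 and 3.18 ± 0.147 CPM. With 20 and 27 reads in dex for HIST1H2BD and 15 and 22 for IFNE, neither was called by edgeR. FAM174A and DDX58 were called by edgeR but not by DESeq2, and CYP1B1 was called by both. The choice set the direction of these genes too. Exons of CYP1B1 overlap antisense genes that were also counted, and 10.3% of the stretches of HIST1H2BD occur in 6 other counted genes, most often in HIST1H2BC.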

How the data were processed

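The tools named, per the submitters' processing notes, are Bowtie, CASAVA, DESeq2 and SAMtools, without versions or roles. Genome build, annotation and strandedness were not given in the sources used here. The deposited files hold raw counts, with the length, aligned reads and unaligned reads of 119207 transcripts per library. Unaligned reads (17.2% to 18.7%) were kept out of library sizes and tests. Counts were summed over the transcripts of a gene, because reads shared by transcripts are placed by the aligner, and CPM uses all aligned reads.

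Dex was compared with etoh by edgeR 4.0.16 in R 4.3.3: filterByExpr (minimum count 10), TMM factors, the quasi-likelihood test, two-sided, Benjamini-Hochberg adjustment over 14777 genes, threshold 0.05. Adjusted p-values are edgeR's except where stated. The SE is the absolute log2 fold change over the square root of F. The code was tested on simulated data. The p-values reflect only variation among these 4 libraries, possibly technical, and floors cover counting error only.

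The members and gene lists were chosen with earlier results of these data known. Named genes are the members, the 4 called genes with the smallest p of each list (or, with fewer than 2 called, the 2 most abundant beside any called), the 5 genes most like PLK2 and PLK3, and FKBP5, TSC22D3, PER1 and NR3C1. Positions and overlaps are from GENCODE 29 on GRCh38, used only for annotation, and stretches of 36 bases were compared over counted transcripts also in that release. Promoters of all 4 members were found in RefSeq's GRCh38.p14. Protein identity, planned, was not analysed here. Alternatives were other scaling factors, filters and tests (DESeq2 1.42.0, limma-voom 3.58.1), a replicate block, the most abundant transcript per gene, a threshold of 0.01, other transcript lengths and removal of each library. The PLK2 to PLK1 ratio over the longest transcript was added after the data were seen.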

Additional observations from a re-analysis of the deposited data

How the results depend on the processing

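The log2 fold changes of the 4 polo-like kinases moved by less than the spread between libraries under every alternative run. That spread combines the SD of log2 CPM of both groups, and was 0.104 for PLK2 and 0.248 for PLK3. Leaving out 1 of 2 libraries moves a group's mean by less than its SD, so those runs could hardly exceed the spread. Without each library the log2 fold changes lay from -1.93 to -1.80 for PLK2 and from -0.98 to -0.67 for PLK3. They lay from -0.25 to -0.11 for PLK4 and from -0.07 to 0.06 for PLK1. These values chose the family, so their range is a description. With 1 library left out, the other library of that treatment stands alone and is assumed to vary like the other treatment's. Genes called numbered 1684 (1031 higher, 653 lower), 1046 with DESeq2 (657 and 389), 995 at a threshold of 0.01 (629 and 366), and 1111 to 1965 without each library (705 to 1159 and 406 to 806). Without etoh replicate 1, 1111 genes were called, 406 lower, and without dex replicate 1, 418 lower.

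PLK1 partners called higher were 0 with upper-quartile factors, library totals, DESeq2, limma-voom, the replicate block, the most abundant transcript or 0.01, and 0 to 1 without each library. PLK1 partners called lower were 1 with DESeq2, the replicate block and 0.01, and 0 to 2 without each library. Centriole genes called lower were 2 with upper-quartile factors and library totals, 0 with DESeq2 and 0.01, and 0 to 2 without each library; 1 was higher without a count filter, and 0 to 2 without each library. The 1 lower p53 gene was lost (0) with DESeq2, the replicate block, the most abundant transcript and 0.01, and 0 to 1 remained without each library. PLK2 and PLK3 partners called higher were 0 with DESeq2, the most abundant transcript and 0.01, and 0 to 2 without each library. Higher p53 genes numbered 4 to 5, and early response genes 3 to 4 higher and 11 to 12 lower, without each library. For these counts the cause was not tested. Other named genes kept their status, called or not called, in 386 of 416 comparisons, lost a call in 28 and gained a call in 2. No call reversed. The 386 include comparisons of genes that were not called in the first place.

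Shares of the family's RPKM moved with the length used. With the most abundant transcript by its length, PLK2 made up 63.2% in dex and 85.4% in etoh, PLK1 29.4% and 10.7%, PLK3 3.22% and 2.10%, and PLK4 4.23% and 1.77%. With the longest transcript, PLK2 made up 47.6% and 75.6%, PLK1 37.4% and 16.4%, PLK3 2.43% and 1.86%, and PLK4 12.5% in dex. The PLK2 to PLK1 ratio by the longest transcript was 1.28 in dex and 4.63 in etoh. Shares without each library ranged as the single libraries do, for PLK2 from 34.0% to 35.8% in dex and 63.7% to 66.0% in etoh.

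With the replicate number as a block, 1558 genes were called, 974 higher and 584 lower, PLK2 was at -1.87, and BORA at -0.54 and NINL at 0.44 were no longer called. Deviations of same-numbered libraries correlated at -0.092, so the numbers were not taken to pair the samples. Depth limits PLK3, PLK4-009 and PLK5 most.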
